A study of Mus musculus with 8 samples.

Results

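Whether splenic B cells changed in the same way in tumor-bearing wild-type (WT) mice and in tumor-bearing mice whose B cells lack Ebi3 (EBi3KO) was examined gene by gene. All 8 libraries of the series entered, 2 in each of 4 groups. These were WT and EBi3KO mice, each with a pancreatic tumor (WT tumor, EBi3KO tumor) or without (WT nontumor, EBi3KO nontumor), and the RNA came from naive B cells of C57BL/6 mouse spleens. The EBi3KO groups carry the genotype label B-EBi3-. The sources used here do not give how the deletion was made, which exons it removes, the age of the mice or whether each library was 1 animal or a pool. Samples labelled WT for tumor status were read as nontumor, which no label states outright. For each gene the tumor effect was the log2 difference between tumor and nontumor libraries of 1 genotype. The interaction was the tumor effect in EBi3KO minus the tumor effect in WT, so that a positive value marks a gene that fell less, or rose more, in EBi3KO tumor. Both are log2 differences of normalized read counts throughout.

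Recovered depth was between 21291892 and 28297319 reads per library. The WT tumor libraries stood apart in 2 ways: their Xist and Y-linked reads had the female pattern and their titles carry another prefix, whereas all 6 other libraries had the male pattern. Sex, prefix and the WT tumor effect cannot be told apart, and every interaction contains the WT tumor effect. The 2 EBi3KO tumor libraries were unusually alike, with a chi-square of 2.01 per degree of freedom between them against 13.1 to 20.3 within the other groups. This is above sampling noise but does not show that they were separate samples. They were kept as 2, and the counts over all genes are also given with them averaged into 1. A correction that removes each library's trend over genes on transcript length and GC content (length and GC correction) is named where it moved a result by over 1.5 times. It used the median over all annotated transcripts of a gene, such as 805 bases for Ccnd2 and 749 for Stat3. The transcripts expressed here may be longer or shorter, so corrected values may be off for single genes. Nothing in the labels says that the 2 libraries of a group were separate animals, so p-values measure the spread between these libraries, which may be technical. In bulk RNA, fewer cells of a type and less RNA per cell cannot be told apart.

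Ebi3 encodes the subunit that pairs with the Il12a product to form interleukin 35 and with the Il27 product to form interleukin 27, and interleukin 35 from B cells is known as an inhibitory cytokine. A naive B cell that is activated may become a plasma cell, which enlarges its endoplasmic reticulum under the transcription factor XBP1 to secrete antibody. Genes of that programme include Igj (now Jchain), the joining chain of polymeric antibody, and chaperones of the unfolded protein response such as Creld2.

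Igj and Creld2 were among the genes whose tumor effects ran in opposite directions in the 2 genotypes, and their promoters are shown because 5 of those genes belong to the plasma cell program. Each sequence is the 250 bases before the RefSeq start site, read in the direction of the gene (GRCm38.p6). Igj lies on the minus strand at chr5:88527898-88528147, and Creld2 on the plus strand at chr15:88819396-88819645. Neither window overlaps its own gene as annotated here, and overlap with other genes was not tested. Capitals in Creld2 mark both ends of the endoplasmic reticulum stress element, which was searched on both strands as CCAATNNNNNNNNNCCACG and lies here on the reverse strand.
Igj: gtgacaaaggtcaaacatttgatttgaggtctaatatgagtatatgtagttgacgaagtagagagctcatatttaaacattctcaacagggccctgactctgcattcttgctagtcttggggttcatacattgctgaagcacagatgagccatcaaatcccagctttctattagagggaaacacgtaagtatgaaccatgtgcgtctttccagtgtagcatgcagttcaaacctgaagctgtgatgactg
Creld2: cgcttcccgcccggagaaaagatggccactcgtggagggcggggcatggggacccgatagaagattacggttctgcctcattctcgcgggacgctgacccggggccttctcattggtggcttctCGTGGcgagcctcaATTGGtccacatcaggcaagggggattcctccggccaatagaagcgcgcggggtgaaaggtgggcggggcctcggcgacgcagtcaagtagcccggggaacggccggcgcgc
The stress element was found in 37 of 32851 mouse promoters of this length (0.113%), and the core TGACGTG of a further unfolded protein response element in 542 (1.65%). Of the 33 genes that were lower in WT tumor and higher in EBi3KO tumor, 24 had a promoter in the table, and Creld2 was the 1 gene with the stress element. The core element was in none of these 24 genes. Of the 30 genes with the reverse pattern 28 had a promoter, and neither element was found in any of them. These matches are letters in a window only.

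Ebi3, the deleted gene, rose in WT tumor and not in EBi3KO tumor. It lies at chr17:55952640-55957022 on the plus strand (mm10). Its normalized read count was 8.94 and 11 without and 201 and 164 with a tumor in WT, and 12.8 and 11.5 without and 8.7 and 11 with a tumor in EBi3KO. The WT tumor libraries were high and the other 6 were low, with WT nontumor and EBi3KO tumor overlapping and EBi3KO nontumor slightly above both. The log2 tumor effect was 4.06 in WT and -0.28 in EBi3KO (limma adjusted p = 0.492), and the interaction was -4.34 (SE 0.43, adjusted p = 0.000209). Because WT nontumor libraries were as low as EBi3KO libraries, the level of Ebi3 does not check the genotype of the nontumor libraries.

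Most genes that changed in both genotypes changed in the same direction and by less in EBi3KO. Of 13011 genes tested, 10378 passed an adjusted p of 0.05 in WT tumor (79.8%) and 4242 in EBi3KO tumor (32.6%). Both effects passed in 3991 genes, of which 3928 (98.4%) had the same sign, and 3630 of these were smaller in EBi3KO. The median ratio of the EBi3KO effect to the WT effect over these 3928 genes was 0.439. The interaction passed in 6881 genes (52.9%), positive in 3579 (27.5%) and negative in 3302 (25.4%). Among them 4096 had a WT effect alone past the threshold, 2544 had the same direction with a smaller effect in EBi3KO, 102 had an EBi3KO effect alone, 65 had neither, and 11 had the same direction with a larger effect in EBi3KO. The remaining 63 had opposite directions with both effects past the threshold (0.484%). Counts in the gene lists below are to be read beside these shares of all genes tested. For the tumor effects the shares are not split by direction. With the EBi3KO tumor libraries averaged, the EBi3KO effect passed in 736 genes, the interaction in 4993, and 6 genes had opposite directions. The EBi3KO effect passed in 788 and 756 genes without EBi3KO tumor replicate 1 or 2 and in 1213 without EBi3KO nontumor replicate 2. Negative interactions numbered 2178 without WT tumor replicate 2.

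**Figure D1:**
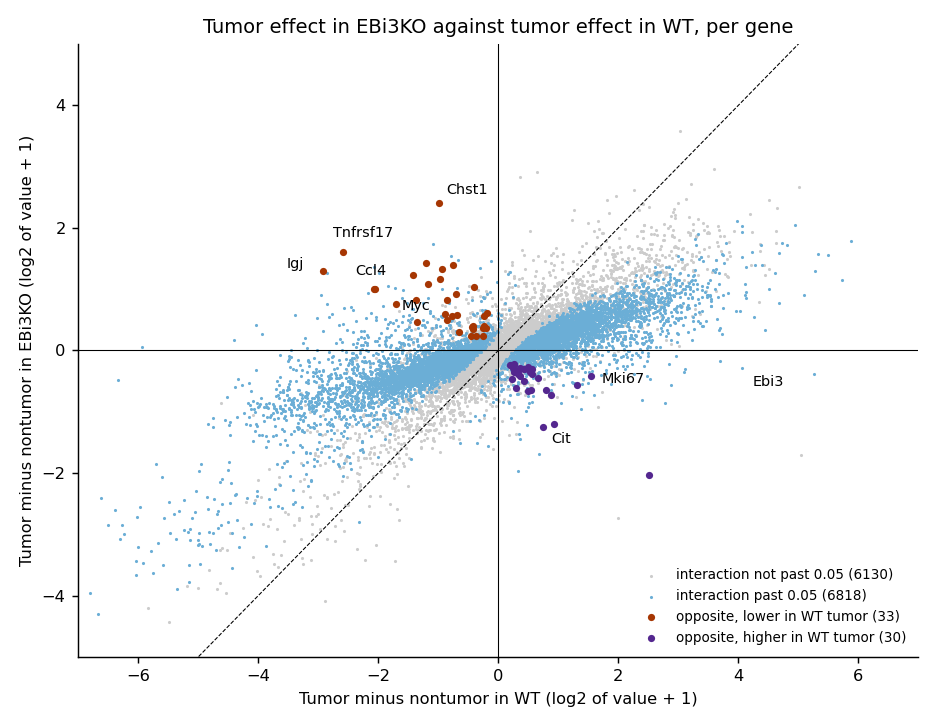
Log2 tumor effect in WT (x axis) against log2 tumor effect in EBi3KO (y axis) for each of the 13011 genes tested, with the 63 opposite-direction genes coloured and 13 genes outside the axes not drawn. The cloud is flatter than the dashed line of equal effects, and the coloured genes fill the upper left (33 genes) and lower right (30 genes).

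Genes with opposite tumor effects were few, and their number depended on single libraries. The 33 genes lower in WT tumor and higher in EBi3KO tumor (0.254% of those tested) included the joining chain, chemokines, interleukin 10 and T and NK cell genes. The 30 genes higher in WT tumor and lower in EBi3KO tumor (0.231%) included genes of mitosis and chromatin. In all 63 genes the tumor and nontumor libraries did not overlap in either genotype, which held for 9229 of the tested genes (70.9%). Both effects reached 1 on the log2 scale in 6 of the 63 and 0.5 in 25. The nontumor libraries of the 2 genotypes did not overlap in 40 of the 63, against 4156 of all genes (31.9%). The 63 genes were chosen on these same values, so neither share without overlap is a test of the set. The count of opposite genes was 7 without either 1 of the EBi3KO tumor libraries, 35 without WT tumor replicate 1, 30 without WT tumor replicate 2 or without EBi3KO nontumor replicate 2, and 100 without EBi3KO nontumor replicate 1. The signs of both effects were the same in each of the 24 alternatives that tested the gene for 54 of the 63, and Igj and Nedd4 were the 2 that kept the call in each alternative. Under quantile scaling 76 genes were opposite, 54 of them lower in WT tumor, and under upper-quartile scaling 59 were, 38 of them lower in WT tumor. In DESeq2, 25 of the 63 kept the call, and Il10, Cd28, Lat, Fkbp11 and Cit did not. With the EBi3KO tumor libraries averaged, the opposite genes named below lost the call, apart from Igj, Nedd4, Cit, Chst1 and Rgs1.

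Igj had the largest positive interaction of the 63 genes. Its normalized read count was 28844 and 24528 without and 3899.6 and 3145 with a tumor in WT, and 18319 and 16540.4 without and 42735 and 42448 with a tumor in EBi3KO. The WT tumor libraries were the lowest of the 8 and the EBi3KO tumor libraries the highest, and no groups overlapped. Its log2 tumor effect was -2.92 in WT and 1.29 in EBi3KO, with an interaction of 4.22 (SE 0.17, limma adjusted p = 5.13e-06). Igj lies at chr5:88519809-88527891 on the minus strand (mm10).

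More plasma cell genes fell than rose in WT tumor, and most rose in EBi3KO tumor. Tnfrsf17, the BCMA receptor that supports plasma cell survival, was at 32.4 and 24.7 without and 4.76 and 3.15 with a tumor in WT, and at 12.8 and 14 without and 40 and 45.8 with a tumor in EBi3KO. Its interaction was 4.19 (SE 0.50, adjusted p = 0.000395), at low counts. Xbp1 was at 2562 and 2901 (nontumor) and 2143 and 1910.4 (tumor) in WT against 2523 and 2644 (nontumor) and 3361 and 3452 (tumor) in EBi3KO, an interaction of 0.83 (SE 0.12, adjusted p = 0.000976). In Xbp1 the tumor libraries lay below the nontumor libraries in WT and above them in EBi3KO, by less than in Igj. The WT effect of Xbp1 was -0.43, and -0.16 with the length and GC correction. Fkbp11, a prolyl isomerase of the endoplasmic reticulum, had a log2 tumor effect of -0.85 in WT and 0.50 in EBi3KO. The latter was close to the threshold (limma adjusted p = 0.0497). Creld2, chosen after its values were seen, had -0.45 and 0.38, the former -0.21 with that correction. Mzb1, a chaperone of antibody assembly, fell by 1.63 in WT and by 0.27 in EBi3KO (-1.04 and -0.11 corrected). Of the 17 tested members of the plasma cell program, 6 rose and 9 fell in WT tumor. In EBi3KO tumor 10 rose and 1 fell. Over all genes tested, 79.8% passed in WT tumor and 32.6% in EBi3KO tumor, in either direction. The interaction was positive and past the threshold in 9 members and negative in 1, Slamf7, with a median of 0.81 against -0.01 over all genes tested. With the correction 10 were positive and 4 negative. The member that fell in both was Mzb1, and Prdm1, which encodes the plasma cell regulator BLIMP1, did not pass in the interaction (0.50, SE 0.22, adjusted p = 0.0869). The program's reads were 0.302% and 0.284% of the library without and 0.248% and 0.243% with a tumor in WT, and 0.263% and 0.255% without and 0.404% and 0.403% with a tumor in EBi3KO. Igj, 1 of these 17 members, held 25802 and 17880 reads without and 4911 and 3999 with a tumor in WT. In EBi3KO it held 14338 and 12989 reads without and 49129 and 46310 with a tumor. This share is thus weighted by Igj and does not describe the other members.

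In the wider machinery of the endoplasmic reticulum more genes fell than rose in WT tumor. Of 29 tested genes of translocation, folding and the unfolded protein response, 7 rose and 16 fell in WT tumor, and 7 rose and 5 fell in EBi3KO tumor. The interaction was positive in 14 and negative in 4, with a median of 0.28, which was 0.13 with the length and GC correction. Dnajb9, a co-chaperone induced by XBP1, was the 1 opposite member (-0.24 in WT, 0.57 in EBi3KO), and Derl3 rose in EBi3KO tumor without passing in WT tumor. Both were chosen after their values were seen. Derl3 acts in degradation from the endoplasmic reticulum and was at 124 and 91.7 in EBi3KO nontumor against 198 and 189 in EBi3KO tumor. Its interaction of 1.09 became 0.56 (adjusted p = 0.0612) with the length and GC correction.

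**Figure D2:**
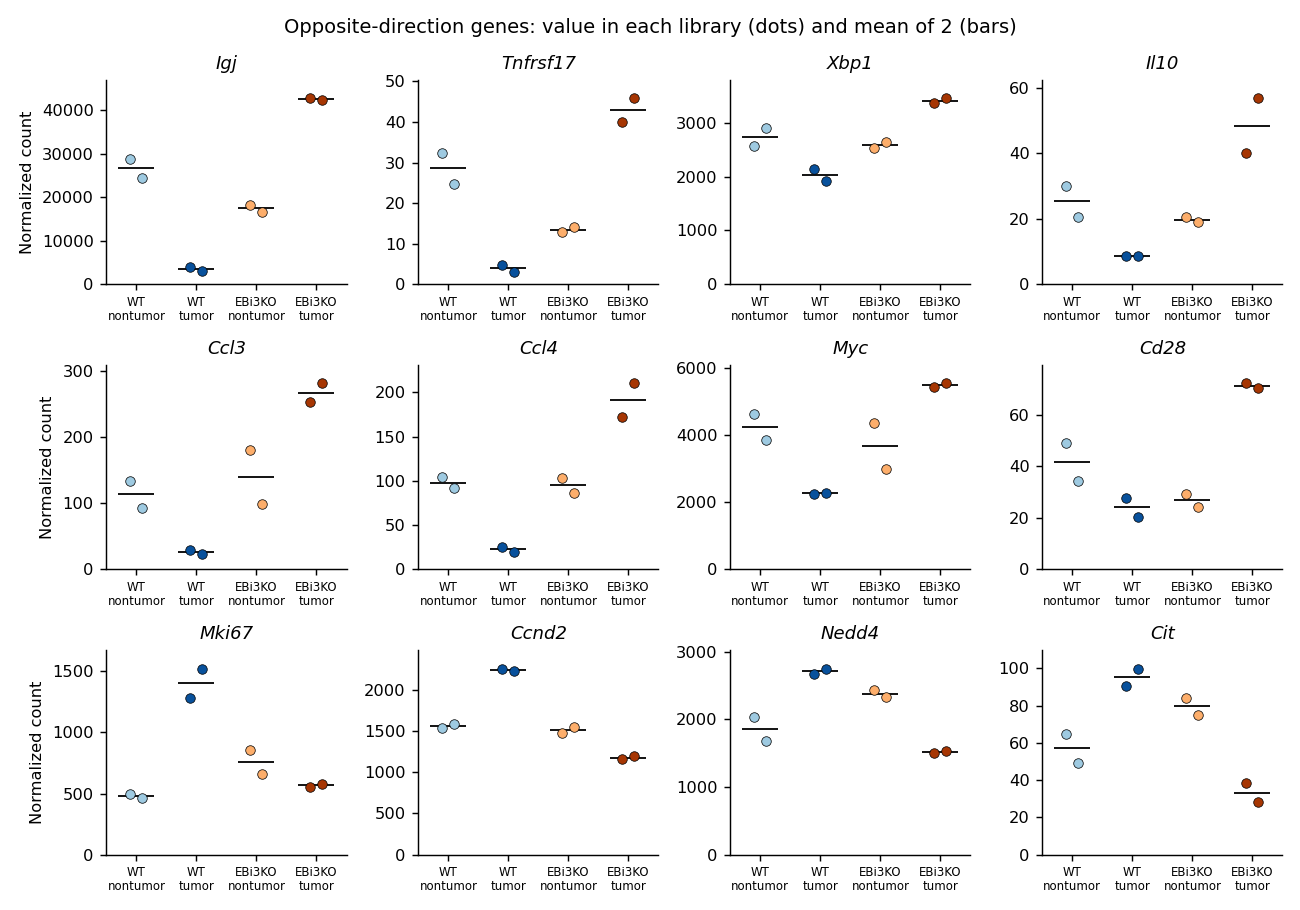
Normalized read counts (y axes, linear from 0) of opposite-direction genes in each of the 8 libraries, 1 point per library, with a bar at the mean of each group of 2. In Igj the WT tumor points (3899.6 and 3145) lie below every other point and the EBi3KO tumor points (42735 and 42448) above.

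Genes of cytokines and of early activation stood among the opposite genes. Ccl3 and Ccl4, neighbouring genes for chemokines that attract T cells, both had a log2 tumor effect of 1.0 in EBi3KO and of -2.06 and -2.08 in WT. The limma adjusted p of the EBi3KO effect was 0.0351 for Ccl3 and 0.0112 for Ccl4. Ccl4 was at 104 and 91.9 without and 25.4 and 19.7 with a tumor in WT, and at 103 and 86.6 without and 172 and 209.9 with a tumor in EBi3KO. The nontumor libraries of the 2 genotypes overlapped in Ccl4 while the tumor libraries lay far apart, and its interaction was 3.08 (SE 0.29, adjusted p = 0.000191). Il10, the cytokine that marks regulatory B cells, was at 30.2 and 20.6 (nontumor) and 8.73 and 8.65 (tumor) in WT against 20.4 and 19.1 (nontumor) and 40 and 56.8 (tumor) in EBi3KO. Its counts were low in every library, and the interaction was 2.65 (SE 0.47, adjusted p = 0.00201). The EBi3KO effect of Il10 had a limma adjusted p of 0.0253. Il10 was chosen after its values were seen. Over 19 tested regulatory B cell genes the interaction was positive in 8 and negative in 2, with a median of 0.49. With the length and GC correction it was positive in 6, with a median of 0.28.

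Myc, a driver of cell growth, was at 4645 and 3863 without and 2257 and 2289 with a tumor in WT, and at 4382 and 3010.3 without and 5444 and 5550.0 with a tumor in EBi3KO. The 2 EBi3KO nontumor libraries differed more from each other than the EBi3KO tumor libraries did, and the interaction was 1.50 (SE 0.22, adjusted p = 0.000976). The EBi3KO effect of Myc had a limma adjusted p of 0.024. Myc belongs to 20 tested immediate early genes, of which 1 rose and 13 fell in WT tumor, and 4 rose and 1 fell in EBi3KO tumor. The interaction was positive in 14 of them and negative in 1, with a median of 0.99. Chst1, a sulfotransferase, had the largest EBi3KO rise of the opposite genes, with 34.5 and 19.1 without and 129.6 and 152 with a tumor, a log2 effect of 2.40 against -0.98 in WT. Gp49a, an immunoglobulin-like receptor gene with a near-identical neighbour whose reads may be split, had 1.08 in EBi3KO and -1.17 in WT. Rgs1, a brake on chemokine receptor signalling chosen after its values were seen, was at 502 and 443 (nontumor) and 342 and 369 (tumor) in WT against 501 and 437 (nontumor) and 956 and 964 (tumor) in EBi3KO. The nontumor libraries of Rgs1 overlapped between genotypes, and the EBi3KO tumor libraries were the highest of the 8.

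Genes typical of T and NK cells formed another set among the 33. Cd28, the T cell co-stimulatory receptor, was at 49.2 and 34.3 without and 27.8 and 20.4 with a tumor in WT, and at 29.4 and 24.2 without and 72.2 and 70.6 with a tumor in EBi3KO. Lat, the adaptor of the T cell receptor, was at 79.4 and 103, 38.1 and 30.7, 76.7 and 58.6, and 111 and 127 in the same order. Both genes were highest in EBi3KO tumor, and the groups did not overlap between tumor and nontumor in either genotype. Il2rb, the interleukin 2 receptor chain of NK and memory T cells, had a log2 tumor effect of -0.78 in WT and 0.56 in EBi3KO. Ms4a4b, a T cell membrane protein, had -0.86 and 0.82. Klra8, an NK receptor of the Ly49 family whose reads may be shared with its paralogs, had -1.71 and 0.75. The EBi3KO effect of Klra8 was close to the threshold (limma adjusted p = 0.0467). Of 7 tested T cell markers 5 fell in WT tumor and 1 rose and 1 fell in EBi3KO tumor, and the interaction was positive in 4 with a median of 1.78. All 6 NK cell markers fell in WT tumor and none passed in EBi3KO tumor, and the interaction was positive in 5, also with a median of 1.78. No T or NK marker tested was at 0 in any library, and Cd3g was at 63.9 and 20.4 without and 95.7 and 94.4 with a tumor in EBi3KO. T cell markers took 0.00559% and 0.00556% of the reads without and 0.00546% and 0.00532% with a tumor in WT. In EBi3KO they took 0.00616% and 0.00536% without and 0.00707% and 0.00726% with a tumor. The summed T cell share thus changed little in WT, although 5 of the 7 markers fell. NK markers took 0.00753% and 0.00604% without and 0.00306% and 0.00251% with a tumor in WT. In EBi3KO they took 0.00835% and 0.00608% without and 0.0093% and 0.00902% with a tumor. The part of these markers in the interactions was not tested.

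Platelet genes were represented by Tubb1 among the 33. Tubb1, the platelet beta-tubulin, was at 378 and 512 (nontumor) and 272 and 269.8 (tumor) in WT against 314 and 293 (nontumor) and 420.1 and 493 (tumor) in EBi3KO. Its WT tumor libraries were the lowest of the 8. All 5 platelet markers fell in WT tumor, none passed in EBi3KO tumor and the interaction was positive in all 5, with a median of 2.32. Mapk12, a p38 kinase, rose by 0.92 in EBi3KO tumor, with -0.71 in WT tumor.

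The 30 genes that rose in WT tumor and fell in EBi3KO tumor held several genes of cell division. Mki67, the nuclear protein that marks cycling cells, was at 497 and 459.6 without and 1282 and 1523 with a tumor in WT, and at 859 and 661 without and 551 and 581 with a tumor in EBi3KO. WT tumor was high, and the other groups did not overlap in the order EBi3KO nontumor, EBi3KO tumor, WT nontumor. The log2 tumor effect of Mki67 was 1.54 in WT and -0.41 in EBi3KO (limma adjusted p = 0.0476 in EBi3KO). Its interaction was -1.96 (SE 0.19, adjusted p = 0.000209). With the length and GC correction the WT effect was 0.68 and the interaction -1.27. Ccnd2, the cyclin D of B cell activation, was at 1533 and 1582 without and 2259.9 and 2235 with a tumor in WT. In EBi3KO it was at 1479.6 and 1546 without and 1162 and 1197 with a tumor. The log2 tumor effects of Ccnd2 were 0.53 in WT and -0.36 in EBi3KO. With the length and GC correction they were 1.02 and -0.20, and the latter did not pass (limma adjusted p = 0.0519). Cit, a kinase of cytokinesis, had a log2 tumor effect of 0.74 in WT and -1.25 in EBi3KO, and Gen1, a resolvase of DNA junctions, had 0.49 and -0.66. Ncapd3, a condensin subunit chosen after its values were seen, had 0.29 and -0.61.

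Mki67 went against most of the cell cycle genes. Of 24 tested cell cycle genes 22 fell and 1 rose in WT tumor, where Mki67 was the 1 that rose, and all 24 fell in EBi3KO tumor. Their median tumor effect was -1.52 in WT and -1.17 in EBi3KO, and the interaction was positive in 7 and negative in 1, Mki67, or in 7 and 4 with the length and GC correction. Rrm2, the ribonucleotide reductase subunit of DNA synthesis, was at 4921 and 5602 (nontumor) and 522 and 567 (tumor) in WT against 6022 and 5252 (nontumor) and 952 and 967 (tumor) in EBi3KO. Rrm2 fell in both genotypes, by 3.27 in WT and by 2.55 in EBi3KO.

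Other genes of this direction act in chromatin, ubiquitin transfer and transcription. Nedd4, a ubiquitin ligase, was at 2040.2 and 1679 without and 2670.4 and 2748 with a tumor in WT, and at 2426 and 2329 without and 1506 and 1537 with a tumor in EBi3KO. Its interaction was -1.19 (SE 0.13, adjusted p = 0.000329). Cbx5, which encodes heterochromatin protein HP1 alpha, had a log2 tumor effect of 0.56 in WT and -0.31 in EBi3KO, and Mxd4, a MYC antagonist, had 0.37 and -0.42. Ammecr1, on chromosome X, had 1.30 and -0.57. With the length and GC correction the WT effect was 0.18 for Cbx5 and 0.34 for Ammecr1, -0.46 for Ncapd3 and 0.33 for Gen1. Ammecr1 and Piga were the 2 of the 63 on chromosome X, and 61 genes were opposite with X and Y left out. Annotated transcripts of the 30 genes had a median length of 2150 bases against 1406 in the 33 genes and 1408 over all genes. Across the 12868 tested genes with a length, Spearman's rho with length was 0.28 for the WT tumor effect, 0.19 for the EBi3KO tumor effect and -0.30 for the interaction. Genes are not independent replicates, so this is a description. With the length and GC correction 67 genes were opposite, 35 of them among the 63, and the WT sign turned in 9 of the 63.

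A further 102 genes passed in EBi3KO tumor and in the interaction without passing in WT tumor, 46 up and 56 down in EBi3KO. A WT effect that misses the threshold is not shown to be 0. Cxcr4, a chemokine receptor that positions B cells, had a log2 tumor effect of 1.12 in EBi3KO and -0.03 in WT, and an interaction of 1.15 (SE 0.15, adjusted p = 0.000552). Tsc22d3, the glucocorticoid-induced leucine zipper, had an interaction of 1.09 (SE 0.24, adjusted p = 0.00509), which was 0.72 under quantile scaling. The WT libraries of Cxcr4 spanned 10642 to 12295 with tumor and nontumor overlapping. Socs3, a feedback inhibitor of JAK-STAT signalling, was at 382 and 343 (nontumor) and 330.3 and 267 (tumor) in WT against 327 and 269 (nontumor) and 532 and 500.5 (tumor) in EBi3KO. The EBi3KO tumor libraries of Socs3 lay above the other 6, with an interaction of 1.08 (SE 0.20, adjusted p = 0.00264). With the length and GC correction it was 0.37 (adjusted p = 0.121).

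The following genes with an EBi3KO effect alone were chosen after their values were seen. Ifng, the cytokine interferon gamma, was at 22.4 and 19.2 without and 16.7 and 7.86 with a tumor in WT, and at 14.1 and 11.5 without and 42.6 and 35.7 with a tumor in EBi3KO. Tbx21, its regulator T-bet, was at 98.4 and 97.4, 85.8 and 84.9, 88.2 and 64.9, and 135 and 154 in that order. Both were highest in EBi3KO tumor, where Cd28, Lat, Il2rb, Ms4a4b and Klra8 were also highest, and the part of T and NK cell genes in this was not tested. Gpr183, which guides B cells to the follicle border, rose by 0.51 in EBi3KO tumor, and Cd83, an activation marker, rose by 0.45. Among the falls were genes of DNA replication and repair. Brca1, of homologous recombination, was at 231 and 230.5 (nontumor) and 222 and 259.5 (tumor) in WT against 253 and 262 (nontumor) and 159 and 173 (tumor) in EBi3KO. Blm, a repair helicase, fell by 0.79 in EBi3KO tumor, and Foxm1, a transcription factor of mitosis, fell by 0.58. The interactions of Brca1 (-0.68) and Blm (-0.76) no longer passed without WT tumor replicate 2 (adjusted p = 0.0564 and 0.0503). That of Brca1 also failed without EBi3KO tumor replicate 1 (adjusted p = 0.0585) and that of Blm without EBi3KO tumor replicate 2 (adjusted p = 0.0527). Rsad2, the antiviral protein viperin, was at 489 and 899 without and 237 and 253 with a tumor in EBi3KO, and its nontumor libraries differed by more than the tumor libraries did. Its interaction of -1.41 was -0.86 (adjusted p = 0.0829) with the length and GC correction. Among the 11 genes whose change was larger in EBi3KO, Prc1 of the mitotic spindle and Tfrc, the transferrin receptor, fell in both genotypes. Tfrc fell by 0.75 in WT and by 1.32 in EBi3KO.

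Most B cell identity genes rose in WT tumor, and fewer passed in EBi3KO tumor. Bach2, a repressor of the plasma cell programme, was at 2016 and 1690.0 without and 8141 and 9039 with a tumor in WT, and at 2127 and 2049 without and 3146 and 3105 with a tumor in EBi3KO. It rose in both genotypes, and the interaction was -1.63 (SE 0.13, adjusted p = 0.000117). Ikzf3, which encodes the B cell factor Aiolos, rose by 1.97 in WT tumor and had 0.21 in EBi3KO tumor (adjusted p = 0.132). Pou2f2, which encodes OCT2, had an interaction of -1.59. Of 20 tested B cell identity genes 13 rose and 4 fell in WT tumor and 4 rose in EBi3KO tumor, and the interaction was negative in 9 and positive in 2, with a median of -0.31. Negative calls numbered 15 under quantile scaling (median -0.66) and 13 with the length and GC correction (median -0.51). Of 18 genes of B cell receptor signalling the interaction was negative in 9 and positive in 2, and of 15 genes of quiescence it was negative in 8 and positive in 2. Bcl6, the germinal centre repressor, had an interaction of -0.51 (SE 0.11, adjusted p = 0.00458), which was -0.13 (adjusted p = 0.485) with the length and GC correction. Rel, an NF-kB subunit, had -1.82 (SE 0.22, adjusted p = 0.000445), and -0.93 with that correction.

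Genes around interleukin 35 mostly rose in WT tumor, and most did not pass in EBi3KO tumor or in the interaction. Of 18 tested genes for subunits, receptors and JAK-STAT components, 12 rose in WT tumor and 3 in EBi3KO tumor, and the interaction was negative in 5 and positive in 1, Socs3, and negative in 3 with the EBi3KO tumor libraries averaged or with the length and GC correction. Il12a, the partner subunit of Ebi3, was at 402 and 252 without and 459.8 and 512 with a tumor in WT, and at 459 and 321 without and 361 and 356 with a tumor in EBi3KO. The spread between the nontumor libraries of Il12a was as wide as the differences, and its interaction of -0.70 did not pass (SE 0.32, adjusted p = 0.0936). It was -1.04 (adjusted p = 0.00926) without WT nontumor replicate 1 and -0.96 (adjusted p = 0.037) without EBi3KO nontumor replicate 2. Interactions of Irf4 (-0.22, SE 0.25, adjusted p = 0.491), Pax5 (-0.33, SE 0.18, adjusted p = 0.155) and Stat3 (-0.07, SE 0.10, adjusted p = 0.595) did not pass either. The interaction of Irf4 passed without WT nontumor replicate 1 (-0.53, adjusted p = 0.0183) and that of Pax5 without EBi3KO nontumor replicate 2 (-0.56, adjusted p = 0.00309). Irf4 and Stat3 rose in both genotypes, by 1.05 and 0.39 in WT and by 0.84 and 0.32 in EBi3KO. With the length and GC correction the WT effect of Irf4 was 0.26 and did not pass (limma adjusted p = 0.0829). Stat3 then had 0.90 in WT and 0.50 in EBi3KO. Of 22 type I interferon genes 9 rose and 7 fell in WT tumor, 2 rose and 7 fell in EBi3KO tumor, and the interaction was negative in 10 and positive in 1. Of 13 genes of MHC class II presentation the interaction was positive in 10 and negative in 2 with a median of 0.66. Under quantile scaling 5 were positive and 3 negative (median 0.00), and with the length and GC correction 6 and 2 (median 0.41).

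Genes of protein synthesis and respiration made up the broadest same-direction groups. Many genes of cytosolic ribosomal proteins have near-identical pseudogenes that can share their reads. All 84 tested fell in WT tumor and 72 fell in EBi3KO tumor, with median tumor effects of -1.81 and -0.45, and the interaction was positive in 83. Under quantile scaling these medians were -0.65 and -0.08, and the interaction was positive in 69 and negative in 1. Their reads were 24% and 24.5% of the library without and 10.5% and 9% with a tumor in WT, and 21.8% and 22.4% without and 18.4% and 18.5% with a tumor in EBi3KO. Rpl41, a short ribosomal protein, was at 88314 and 85969 (nontumor) and 18531 and 14604 (tumor) in WT against 74609 and 79126 (nontumor) and 48272 and 50036 (tumor) in EBi3KO. The EBi3KO tumor libraries thus lay between the nontumor and the WT tumor libraries. Of 81 nuclear-encoded respiratory chain genes the interaction was positive in 76, of 73 mitochondrial ribosomal proteins in 64, and of 39 proteasome subunits in 33, with negative calls in 0, 0 and 1. Glycolysis had 10 positive of 15 with a median of 0.54, which became 4 positive and 3 negative with a median of 0.12 with the length and GC correction. Numbered zinc finger genes, mostly repressors of transcription, ran the other way: of 290 tested 224 rose in WT tumor and 75 in EBi3KO tumor, and the interaction was negative in 151 and positive in 10.

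**Figure D3:**
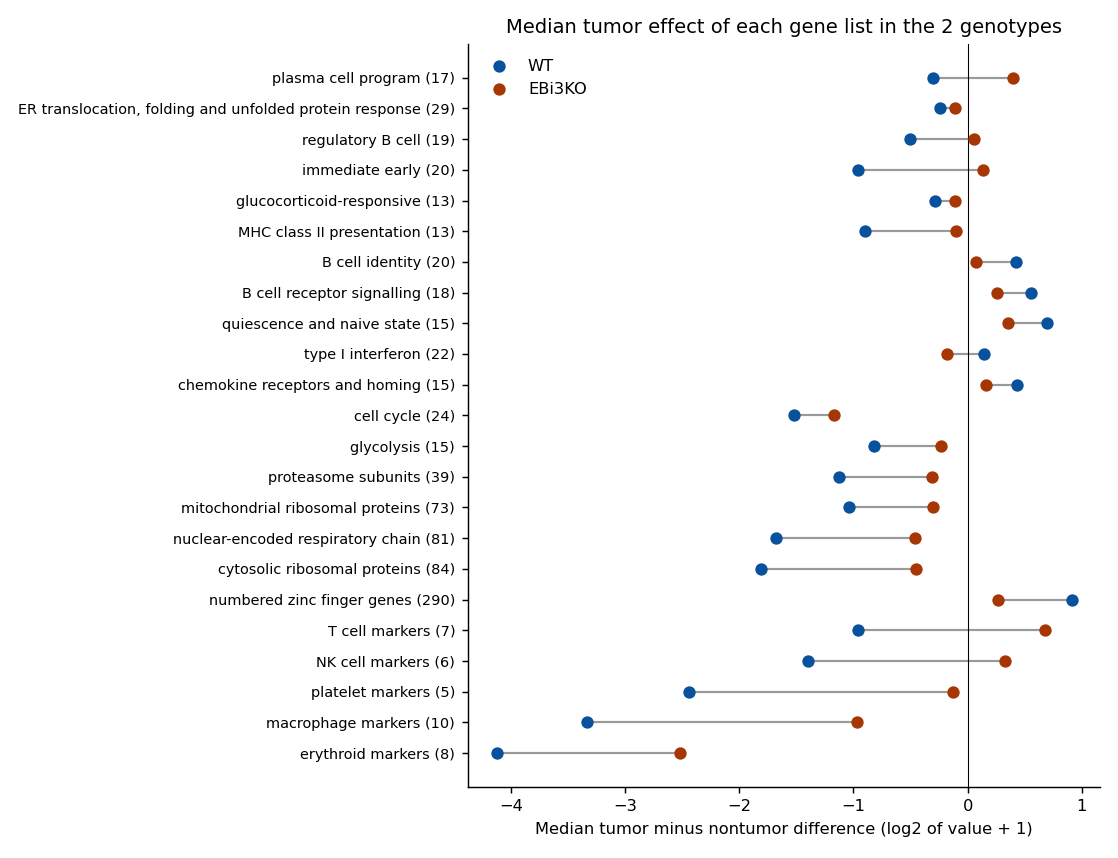
Median log2 tumor effect of each gene list in WT and in EBi3KO, with 0 marked; each point is a median over the tested members. The plasma cell program (-0.30 in WT, 0.40 in EBi3KO) and the immediate early genes (-0.96 and 0.13) lie on opposite sides of 0 (WT medians of -0.10 for the first under quantile scaling and -0.58 for the second with the length and GC correction), while cytosolic ribosomal proteins (-1.81 and -0.45) lie on the same side.

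The largest interactions included sex-linked genes and genes of other cell lineages. Xist and the Y-linked genes, which define the female pattern of the WT tumor libraries, led both directions, and 3 of 4 tested X genes that escape inactivation had a negative interaction. Kdm6a, a histone demethylase of that list, was at 835 and 696 without and 2683 and 3075 with a tumor in WT, and at 939 and 893 without and 959 and 923 with a tumor in EBi3KO. Outside the sex chromosomes, Vasn, a TGF-beta-binding membrane protein, was at 6.71 and 6.86 (nontumor) and 230.3 and 386 (tumor) in WT against 21.7 and 14 (nontumor) and 10.4 and 16.5 (tumor) in EBi3KO. Vasn was high in WT tumor alone, with an interaction of -5.65 (SE 0.53, adjusted p = 0.000175). Kcna3, a potassium channel of lymphocytes, had -3.46 (SE 0.41), and Il22ra1, a receptor chain for interleukin 22, had -4.11 (SE 0.62). Among positive interactions Mcpt8, a basophil protease, was at 129.7 and 103 without and 6.35 and 3.15 with a tumor in WT, and at 133 and 108 without and 122 and 149 with a tumor in EBi3KO. Prg2, an eosinophil granule protein, was at 347 and 248, 17.5 and 16.5, 404 and 174, and 364 and 346 in that order. Both were low in WT tumor alone.

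In most lists of other cell types, most tested markers had a positive interaction past the threshold. The 5 tested stroma markers differed, with 0 positive and 1 negative. All 10 macrophage markers fell in WT tumor and 8 in EBi3KO tumor, with median tumor effects of -3.34 and -0.97, and the interaction was positive in 9. C1qc, a complement chain of red pulp macrophages, was at 11555 and 14229.6 (nontumor) and 646 and 518 (tumor) in WT against 10694 and 12757 (nontumor) and 5187 and 5241 (tumor) in EBi3KO. Macrophage markers took 0.353% and 0.379% of reads without and 0.046% and 0.0403% with a tumor in WT, and 0.326% and 0.411% without and 0.219% and 0.217% with a tumor in EBi3KO. All 8 tested erythroid markers fell in both genotypes, and the interaction was positive in 5, or 3 with the length and GC correction. Their reads spanned 0.562% to 1.5% in nontumor libraries, 0.0725% to 0.104% in WT tumor and 0.276% to 0.285% in EBi3KO tumor. All 9 granulocyte markers fell in WT tumor and 6 in EBi3KO tumor, and the interaction was positive in 8. The part of these cells in the interactions was not tested.

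**Figure D4:**
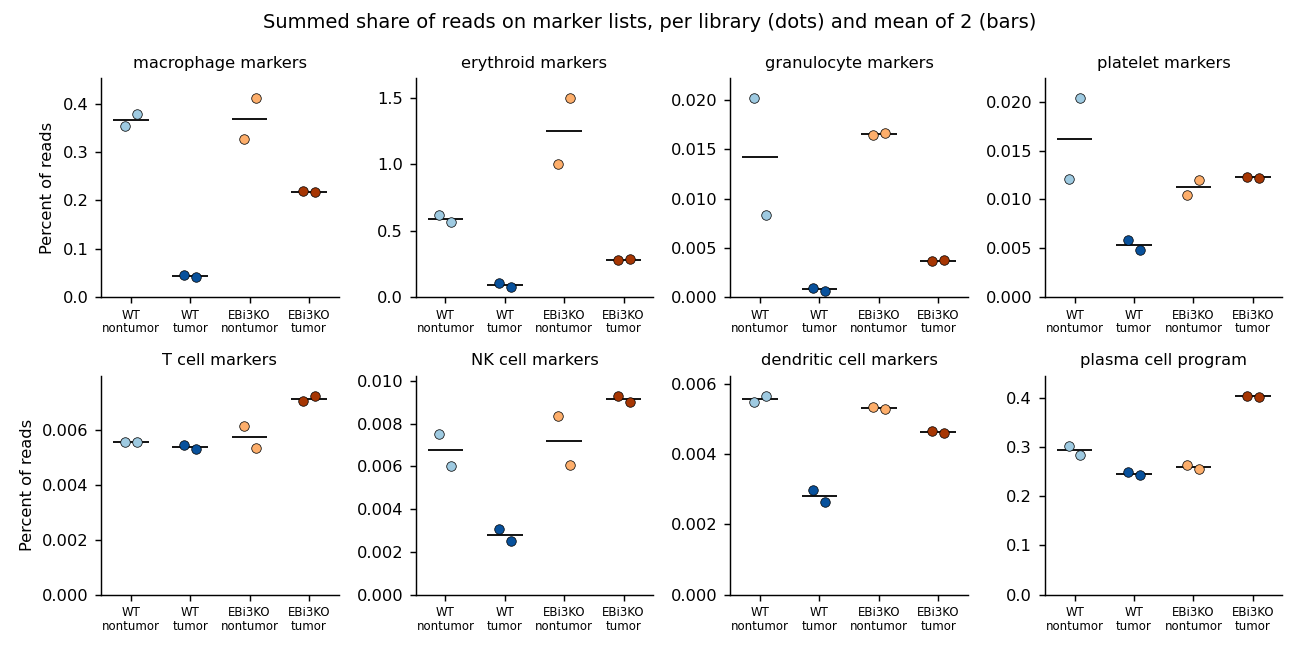
Percent of each library's reads taken by markers of other cell types and by the plasma cell program, 1 point per library by group with a bar at the mean of 2, on linear axes that start at 0. Macrophage markers lie at 0.046% and 0.0403% in WT tumor against 0.219% and 0.217% in EBi3KO tumor, and the plasma cell program lies highest in EBi3KO tumor. The share of the plasma cell program is weighted by Igj and does not describe its other members.

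**Figure D5:**
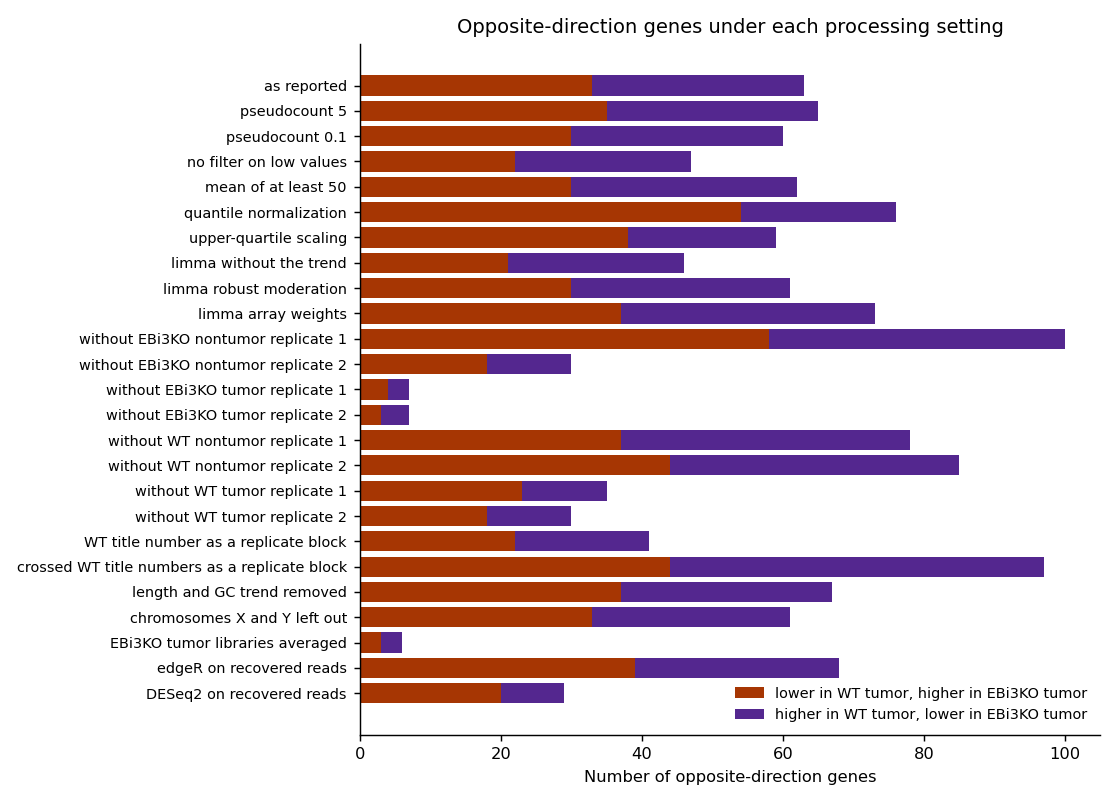
Number of genes with opposite tumor effects under each setting, split by direction, as bars that start at 0. The count runs from 6 with the EBi3KO tumor libraries averaged to 100 without EBi3KO nontumor replicate 1, against 63 in the fit of all 8 libraries.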

How the data were processed

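RNA sequencing of 8 libraries was analysed in 4 groups of 2, grouped by the genotype and tumor labels. RNA was extracted with a Qiagen column kit and made into stranded mRNA libraries, per the labels' protocols. The submitters' processing notes name Salmon, DESeq2 and mm10, without versions. The table holds normalized counts deposited by the authors, that is a signal already divided by a size factor per library, with 1 value per gene symbol. Dividing by each library's smallest step returned whole reads for 100% of values (tolerance 0.01). Whether the counting used strand is not given, so overlapping and paralogous genes may share reads.

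From these values log2(value + 1) was computed for the 13011 of 23302 entries with a mean of at least 10. A fold on this scale understates changes of low genes. One mean per group was fitted over all 8 libraries with limma 3.58.1 (R 4.3.3, variance trend), with Benjamini-Hochberg adjustment over all genes tested and a threshold of 0.05; tests are two-sided. "Opposite" genes passed in both tumor effects, with different signs, and in the interaction. WT tumor differs from every other group in title prefix and sex pattern, so neither could be a covariate. The title numbers of WT libraries do not state a pairing.

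Named genes are 10 fixed genes, the 15 opposite genes of each direction with the largest smaller effect, the 10 largest interactions of each sign (both with a group mean of at least 50), and the 4 members of each of 41 lists with the smallest interaction p; not all of these genes are reported here. Members and lists were chosen with earlier results of these data known. Alternatives changed the pseudocount (5, 0.1) or the filter on the mean (none, 50), or used quantile or upper-quartile scaling, no trend, robust moderation, array weights, each library left out, a replicate block, correction for length and GC content, averaged EBi3KO tumor libraries, X and Y left out, and count tests of the recovered reads in edgeR 4.0.16 and in DESeq2 1.42.0. The interaction fit was tried on simulated counts in which some genes changed in EBi3KO tumor alone. No WT tumor effect and no opposite effects were simulated, so the opposite call was not tested in this way. Promoters are RefSeq's.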

Additional observations from a re-analysis of the deposited data

Results flagged for a closer look

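The tumor effect differed between genotypes in the test of the difference itself for 6881 of 13011 genes, and 63 of them had opposite tumor effects. Of the genes fixed by name, the difference was -4.34 for Ebi3, 4.22 for Igj, 0.83 for Xbp1, -1.63 for Bach2 and -0.51 for Bcl6 on the log2 scale (EBi3KO minus WT). The test of the difference passed for 63 of the genes named above. Sex pattern and title prefix change with WT tumor and cannot be told apart from these differences. Groups of 2 libraries are too small to test for a single outlying library.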

How the results depend on the processing

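The interaction passed in 4993 to 7372 genes under alternatives that kept every library, and in 4944 to 7495 with 1 library left out; both ranges lie within 1.5 times of 6881. Negative interactions ranged from 2178 to 3735 with 1 library left out. Genes past the threshold in EBi3KO tumor numbered 2375 without the trend and 736 with the EBi3KO tumor libraries averaged, and 756 to 5313 with 1 library left out. Opposite genes numbered 6 with those libraries averaged (3 in each direction), 29 with DESeq2 (20 lower and 9 higher in WT tumor), and 7 to 100 with 1 library left out (3 to 58 lower and 3 to 42 higher in WT tumor). Those lower in WT tumor numbered 54 under quantile scaling and 21 without the trend. Interactions changed sign for Irf4, to 0.10 without WT nontumor replicate 2 and 0.42 with the trend on length and GC removed, and for Stat3, to 0.03 and 0.01 under quantile and upper-quartile scaling and 0.00 without WT nontumor replicate 2. With 1 library left out they ranged from -0.53 to 0.10 for Irf4 and from -0.13 to 0.00 for Stat3; neither passed in the fit of all libraries. With the trend on length and GC removed, the interactions of Prdm1 (0.91), Pax5 (-0.68) and Stat3 (-0.41) passed. The cause was not tested. Of 68 genes named, 55 passed in every alternative. That count concerns the interaction alone, in genes mostly named for their values in these data, so it is no test of them. The opposite call was kept in each alternative by Igj and Nedd4 alone. Low counts limit, among others, Il10, Tnfrsf17, Ifng, Cd28 and Cit, whose groups lay under 100 normalized counts. Chst1 lay under 100 in every group but EBi3KO tumor.

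Title numbers 7 and 8 occur in both WT groups, and deviations of same-numbered WT libraries correlated at -0.26 over 13011 genes. With 2 libraries per group, crossing the numbers only turns the sign of this correlation. It therefore cannot show whether the numbers mark a pairing, and none was assumed in the main fit. With the WT title number as a replicate block 6334 interactions passed and 41 genes were opposite, 19 of them higher in WT tumor. With the numbers crossed, an alternative added after the data were seen, 7372 interactions passed and 97 genes were opposite, 53 of them higher in WT tumor.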

Other observations

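Digestive enzymes of the exocrine pancreas were found in the tumor libraries of both genotypes. Amy2a5, pancreatic amylase, was at 0 in all 4 nontumor libraries, at 48.4 and 53.5 normalized counts in WT tumor and at 248 and 313 in EBi3KO tumor. Pnlip, pancreatic lipase, was likewise at 0 in the nontumor libraries, at 12.7 and 11.8 in WT tumor and at 36.5 and 39.4 in EBi3KO tumor. Both enzymes were higher in EBi3KO tumor than in WT tumor, with no overlap. Cela1, an elastase that these spleen libraries held without a tumor, went the other way: it was at 1654 and 1952 without and 88.9 and 64.5 with a tumor in WT, and at 1339 and 1574 without and 654 and 665 with a tumor in EBi3KO.

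Genes of amino acid supply under the stress factor ATF4 mostly fell in WT tumor. Of 12 tested 10 fell in WT tumor and 5 in EBi3KO tumor, and the interaction was positive in 5 and negative in none, with a median of 0.55. It was positive in 3 with the EBi3KO tumor libraries averaged, and in 3 with the length and GC correction (median 0.33). Of 17 tested clustered histone genes, whose transcripts mostly lack the poly(A) tail that the libraries select for, 12 fell and 2 rose in WT tumor, 1 fell and 1 rose in EBi3KO tumor, and the interaction was positive in 6 and negative in 2, or in 3 and 1 with the EBi3KO tumor libraries averaged.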
